A study of Rattus norvegicus with 26 samples.

Results

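The synaptic vesicle release machinery was followed as the genes Syt1, Syt2, Sv2a, Sv2b, Sv2c, Snap25, Vamp1, Vamp2 and Stx1a, chosen by name from the joint count table. Of these 9 genes, 8 were found among the 32883 genes of the table, Sv2b is not analysed here, and all 8 were among the 17990 genes that passed the filter on low counts. The study asked which genes of the injured rat spinal cord respond to mesenchymal stem cells from human umbilical cord (hUC-MSCs), and poly(A) RNA was sequenced from 5 mm cord segments centred on the lesion, 26 libraries in 8 groups. All rats were wild-type adult female Sprague-Dawley animals, labelled as postnatal day 70. Intact (4 libraries) held intact or sham rats. Every other group had the cord compressed at T10 by a 60 g clip for 1 min. The sub-SCI group (3 libraries) was taken in the subacute phase, when cells would be given, 7 days after injury. The +MSC groups received hUC-MSCs and the +PBS groups received vehicle into the spinal fluid at that time. They were taken 1, 2 or 4 weeks post-transplantation (wpt), with 3, 3 and 4 libraries for +MSC and 3, 2 and 4 for +PBS. Per the methods, the rats were given cyclosporin A daily to suppress rejection of the human cells.

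Transmitter leaves a nerve terminal when a synaptic vesicle fuses with the plasma membrane. Vamp1 and Vamp2 on the vesicle, with Snap25 and Stx1a on the plasma membrane, zip into the SNARE complex that drives this fusion, and Syt1 and Syt2 are the calcium sensors that trigger it when calcium enters. Sv2a, Sv2b and Sv2c are glycoproteins of the vesicle membrane that keep vesicles ready for release. Syt2 and Vamp1 are the forms known from fast, reliable synapses of the brainstem and spinal cord, including the motor nerve terminal, while Syt1 and Vamp2 prevail in the forebrain. Bulk libraries do not give the cell source of each transcript. For transcripts of neuronal cell bodies, fewer neurons and less RNA per neuron cannot be told apart in them.

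The results below turn on 3 pairs of related genes, and the 250 bases before the start of each of the 6 genes are shown so that the pairs can be set side by side. They are printed 5′ to 3′ on the coding strand, from RefSeq annotation of GRCr8, a later build than the Rnor6 build of the counts. Capitals mark the GC box letters GGGCGG and the cAMP response element letters TGACGTCA, each searched on both strands, and no match overlapped another.
Syt2, chr13:48736872-48737121, plus strand: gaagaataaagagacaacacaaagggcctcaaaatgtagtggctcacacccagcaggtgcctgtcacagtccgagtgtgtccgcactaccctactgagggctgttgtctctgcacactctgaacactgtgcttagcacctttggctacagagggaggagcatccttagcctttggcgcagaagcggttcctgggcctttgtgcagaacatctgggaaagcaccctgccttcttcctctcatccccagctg
Syt1, chr7:46244214-46244463, minus strand: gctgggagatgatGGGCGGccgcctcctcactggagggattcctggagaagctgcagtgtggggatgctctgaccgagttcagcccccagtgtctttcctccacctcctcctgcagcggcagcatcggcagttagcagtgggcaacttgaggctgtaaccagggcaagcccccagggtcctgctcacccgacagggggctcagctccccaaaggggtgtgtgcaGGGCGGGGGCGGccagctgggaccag
Sv2c, chr2:29163169-29163418, minus strand: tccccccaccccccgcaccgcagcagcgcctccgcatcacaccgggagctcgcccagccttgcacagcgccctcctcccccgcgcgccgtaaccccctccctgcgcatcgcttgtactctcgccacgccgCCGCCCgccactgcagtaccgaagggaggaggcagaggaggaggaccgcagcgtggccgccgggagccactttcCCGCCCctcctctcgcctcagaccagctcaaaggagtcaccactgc
Sv2a, chr2:186430113-186430362, plus strand: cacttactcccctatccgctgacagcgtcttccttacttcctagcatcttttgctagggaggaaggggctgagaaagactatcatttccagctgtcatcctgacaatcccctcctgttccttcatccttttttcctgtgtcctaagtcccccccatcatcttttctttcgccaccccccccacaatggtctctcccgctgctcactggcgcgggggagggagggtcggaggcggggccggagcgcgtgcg
Vamp1, chr4:159698644-159698893, plus strand: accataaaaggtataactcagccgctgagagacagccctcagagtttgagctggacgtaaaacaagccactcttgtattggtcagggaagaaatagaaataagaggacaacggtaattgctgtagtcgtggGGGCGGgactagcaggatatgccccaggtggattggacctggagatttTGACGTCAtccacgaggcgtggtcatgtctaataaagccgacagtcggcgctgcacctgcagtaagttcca
Vamp2, chr10:54292539-54292788, plus strand: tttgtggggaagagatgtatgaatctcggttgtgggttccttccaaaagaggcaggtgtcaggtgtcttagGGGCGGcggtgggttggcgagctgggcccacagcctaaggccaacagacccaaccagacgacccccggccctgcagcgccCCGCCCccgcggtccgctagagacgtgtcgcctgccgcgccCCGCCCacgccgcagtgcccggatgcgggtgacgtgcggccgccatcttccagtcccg
The windows of a pair were unlike in these letters. Syt1 held 3 GC boxes, 2 of them adjacent, and Syt2 held none. Sv2c held 2 and Sv2a none, while Vamp1 held 1 and Vamp2 held 3. The cAMP response element was found in the Vamp1 window, 71 bases before the start, and in 1.7% of 27457 rat promoter windows of this length. A GC box was found in 32.4% of those windows. The TATA box letters TATAAA and the E box letters CACGTG, present in 13.1% and 5.79% of all windows, were in 0 of the 6. G and C made up 72.0% of the Sv2c window and 50.4% of the Vamp1 window, against a median of 52.0% over all windows. These are matches of letters and not measured binding sites.

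Total counts per library ranged from 19496602 to 43468509. The libraries labelled replicate 1 stood apart for most of these genes. In 7 of 8 groups Syt2, Sv2a, Snap25 and Vamp1 were above the group mean in replicate 1, and Stx1a was in all 8 groups. The clearest case was replicate 1 of +PBS-4w, the highest of its group for 7 of 8 genes and the lowest for Sv2c. It held 8423 CPM (read counts scaled to library size, with TMM factors) of 15 neuron markers, against 2381 to 3313 CPM in the other 3 of its group, and 1186 CPM of the fibroblast and scar markers, against 3877 to 4862 CPM. The part of these markers in its release gene values was not tested, and the main results that move with it are also given without it.

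In intact cord the 8 genes differed widely in level. Per kilobase of gene length, in TMM-scaled CPM, Vamp1 was highest at 676 ± 47.9 (SD, n = 4), followed by Snap25 at 614 ± 124, whose 4 values overlapped those of Vamp1. Syt2 at 123 ± 18.2, Vamp2 at 114 ± 5.31 and Sv2a at 108 ± 5.92 followed, and their libraries overlapped. Sv2c stood at 48.9 ± 12.3, Syt1 at 28.7 ± 0.506 and Stx1a, the least abundant, at 8.05 ± 0.781. Within each of the 3 pairs, the more abundant transcript of intact cord was thus Syt2, Sv2a or Vamp1. The defining neuron markers were present in every group. Summed over 15 of them, Rbfox3, Map2 and neurofilaments among them, the level was 14249 ± 1017 CPM in Intact (n = 4) and 2202 ± 1171 CPM in sub-SCI (n = 3).

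**Figure D1:**
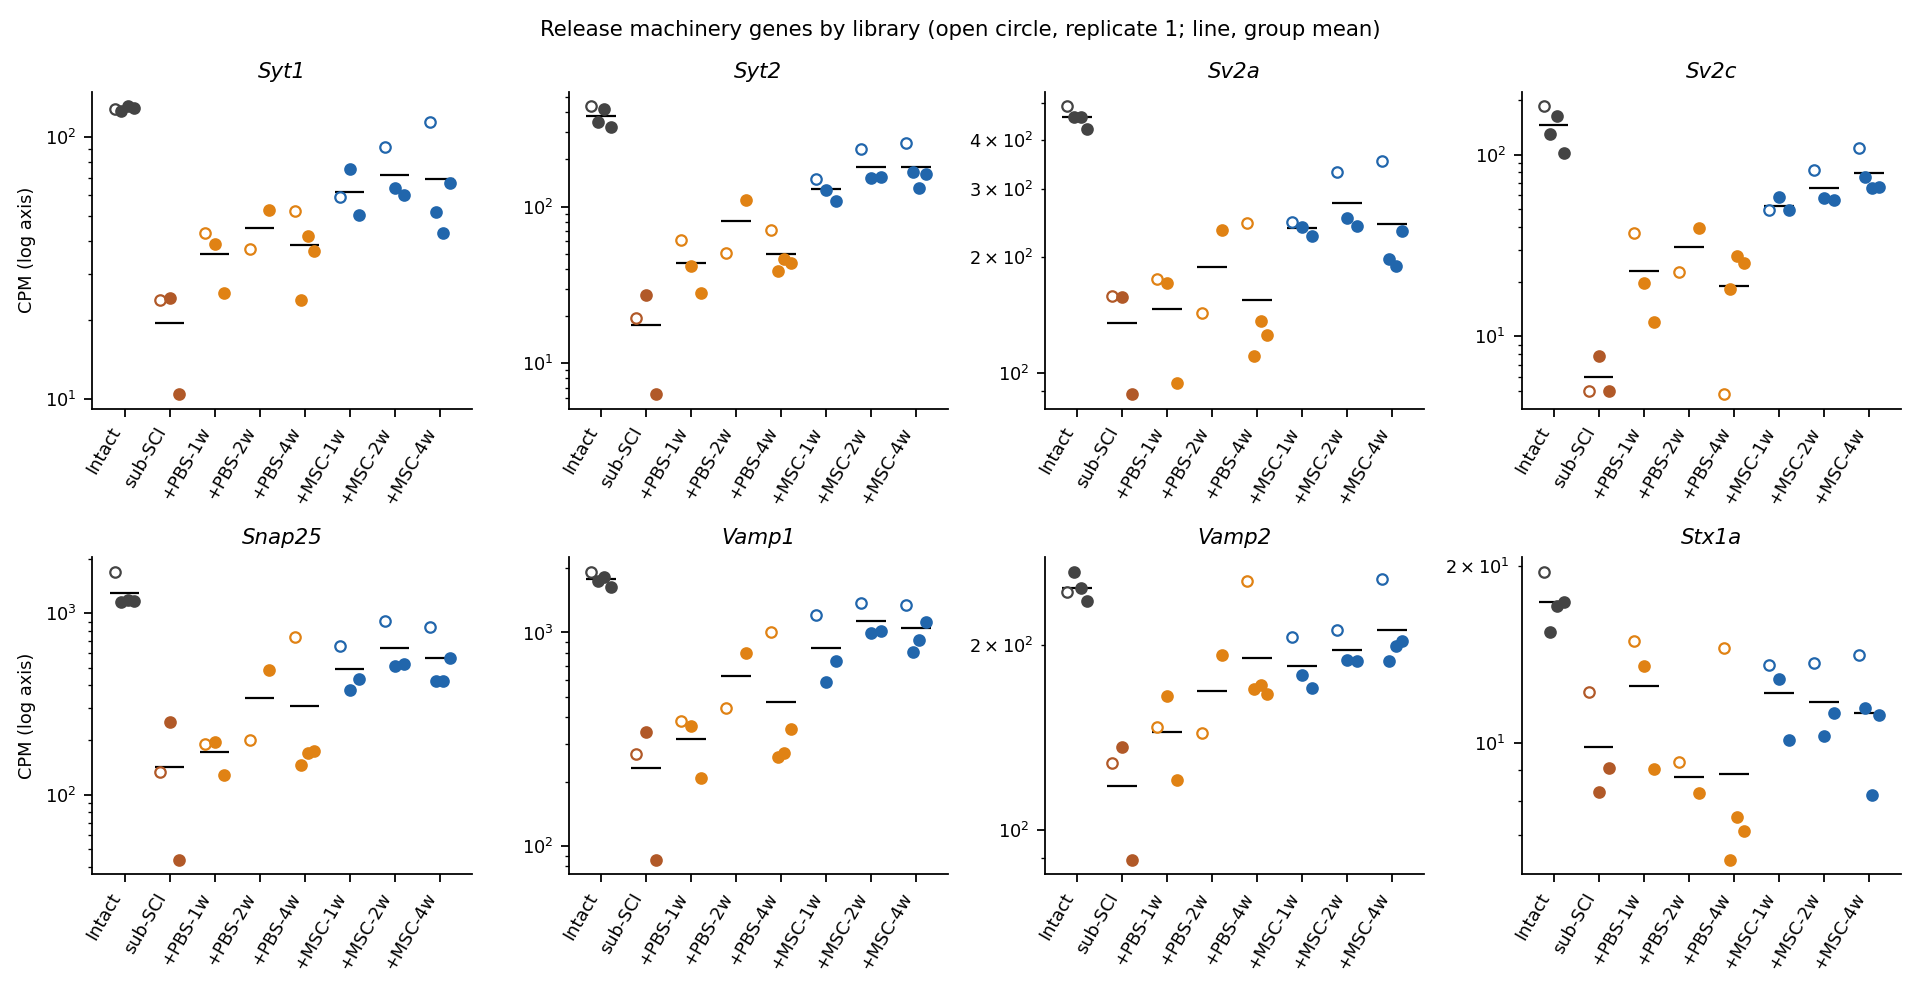
Each panel plots 1 gene, with CPM on a log axis and 1 point per library in 8 groups. Open circles are the libraries labelled replicate 1 and lines are group means. The sub-SCI points lie below every Intact point for all 8 genes, and +PBS-4w replicate 1 lies apart from its group, at 739 CPM of Snap25 and 4.81 CPM of Sv2c.

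At 7 days after injury the release genes were lower as a group. A differentially expressed gene (DEG) had to change by over 1 on the log2 scale in either direction with its adjusted p below 0.01 (edgeR's quasi-likelihood test, Benjamini-Hochberg adjustment over the 17990 genes). By this rule 7 of 8 release genes fell between Intact and sub-SCI, where 17.5% of all genes tested were called lower. The median log2 fold change of the 8 genes was -2.83, against -0.02 over all genes. In all 8, each sub-SCI library was below each Intact library, as held for 34% of all genes.

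Among the calcium sensors, Syt2 fell the further. Its 4 Intact libraries held 438, 348, 419.8 and 320.2 CPM, and its 3 sub-SCI libraries 19.4, 27.1 and 6.34 CPM. The log2 fold change was -4.44 (SE 0.43, adjusted p = 2.13e-08), and 4.62% of the Intact mean was left. Syt1 went from 128, 126, 131 and 129 CPM to 24.0, 24.3 and 10.4 CPM (log2 fold change -2.71, SE 0.35, adjusted p = 7.85e-07), which left 15.2%. The third sub-SCI library was the lowest for both sensors.

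The vesicle glycoproteins showed the same contrast within a family. Sv2c held 185, 129, 163 and 102 CPM in Intact and 5.03, 7.79 and 5.02 CPM in sub-SCI. Its log2 fold change of -4.61 (SE 0.49, adjusted p = 7.55e-08) was the largest in size of the 8, with 4.11% of the Intact mean left. Sv2a went from between 429 and 490.5 CPM to between 88.1 and 158 CPM, which left 29.3% (log2 fold change -1.77, SE 0.29, adjusted p = 2.09e-05).

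Of the SNARE proteins, Snap25 and Vamp1 kept 11.0% and 13.0% of the Intact mean, Vamp2 47.6% and Stx1a 56.8%. Snap25 held 1691, 1149, 1187 and 1169 CPM in Intact and 133, 251 and 43.8 CPM in sub-SCI (log2 fold change -3.19, SE 0.59, adjusted p = 7.92e-05). Vamp1, the vesicle SNARE of fast synapses, went from between 1629 and 1926 CPM to between 86.0 and 339.8 CPM (log2 fold change -2.94, SE 0.48, adjusted p = 1.95e-05). Vamp2 fell by 1.07 on the log2 scale (SE 0.17, adjusted p = 1.19e-05), from between 236 and 263 CPM to between 89.3 and 136 CPM. Stx1a, with 15.4 to 19.5 CPM in Intact and 8.26 to 12.2 CPM in sub-SCI, stood at -0.81 on the log2 scale (SE 0.25, adjusted p = 0.0072) and did not reach the fold of the rule.

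Other cell types moved in the same libraries. The 7 fibroblast and scar markers, collagens and Postn among them, summed to between 137 and 1205 CPM in Intact and between 7885 and 19329 CPM in sub-SCI, and all 7 were called higher, where 16.6% of all genes were. Of the 10 microglia and macrophage markers, 8 were called higher, and their sum went from between 360 and 718 CPM to between 5650 and 6243 CPM. Of the 15 neuron markers, 13 were called lower, with a median log2 fold change of -2.54. What part these shifts had in the fall of the release genes was not tested. The release genes minus the neuron markers, in mean log2 CPM, stood at -0.04 ± 0.04 (SD, n = 4) in Intact and -0.30 ± 0.22 (n = 3) in sub-SCI. The oligodendrocyte and the astrocyte markers each had 5 of 8 genes called lower.

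**Figure D2:**
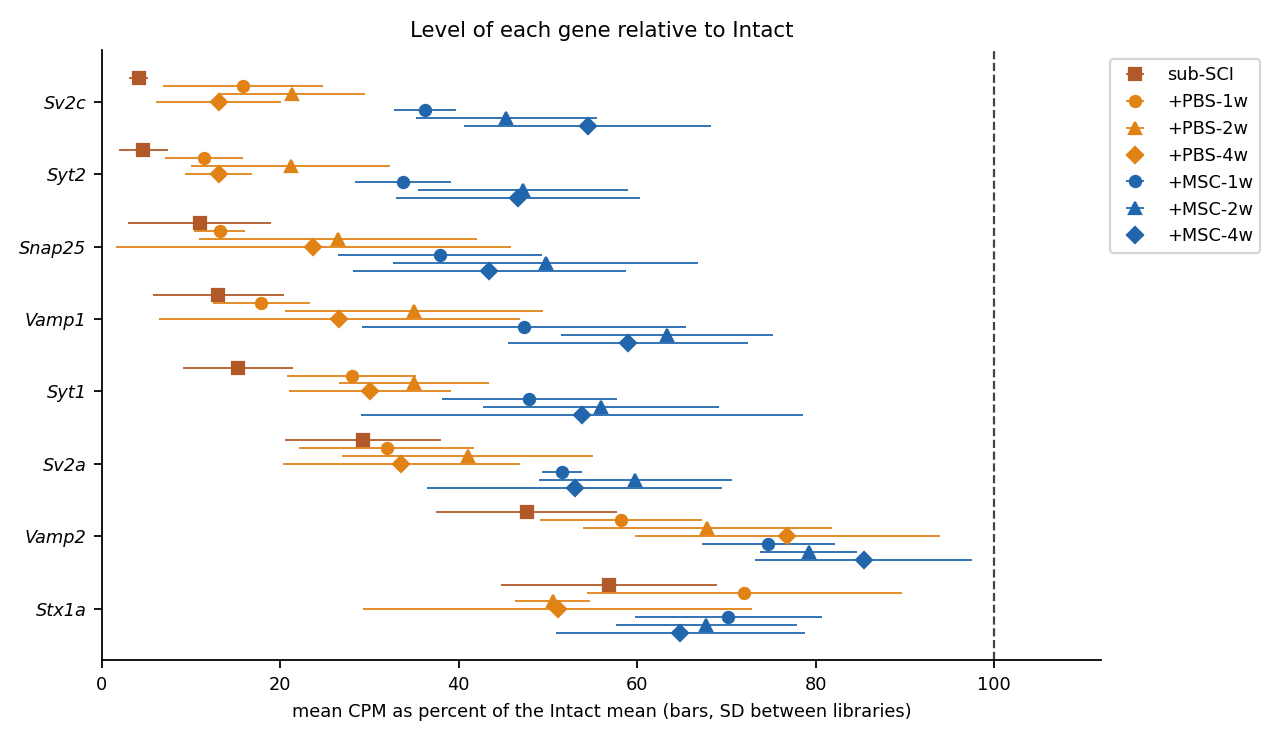
Mean CPM of each gene as a percent of its Intact mean (dashed line at 100), with SD between libraries as bars and genes ordered by their sub-SCI level. Sv2c and Syt2 start lowest, at 4.11% and 4.62% in sub-SCI, and reach 54.4% and 46.6% in +MSC-4w, against 13.1% for both in +PBS-4w.

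With vehicle the deficit lasted over the 4 weeks. Against Intact, 6 of 8 release genes were called lower in +PBS-1w, where 12.5% of all genes were. In +PBS-2w, a group of 2 libraries, 4 of 8 were called lower (Syt1, Syt2, Sv2a and Sv2c), where 5.66% of all genes were, and 8 of 8 at an adjusted p under 0.05 alone, where 17% were. In +PBS-4w 6 of 8 were called lower again, where 10.7% were, and Vamp2 and Stx1a did not reach the fold of the rule. Without +PBS-4w replicate 1, where 11.6% of all genes were called lower, Stx1a was called too (-1.26, adjusted p = 1.20e-05), and Snap25 and Vamp1 moved from -2.08 and -1.91 to -2.94 and -2.54. Without +PBS-2w replicate 1, or without the 8 libraries labelled replicate 1, a single library was left in +PBS-2w. Leaving out 1 library at a time, its log2 fold changes against Intact ran from -2.91 to -1.76 for Syt2 and -2.68 to -1.86 for Sv2c. They ran from -1.78 to -1.26 for Syt1 and -1.68 to -0.95 for Sv2a.

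Syt2 and Sv2c were higher in +PBS-4w than in sub-SCI without any cells given. Syt2 rose by 1.50 on the log2 scale (SE 0.38, adjusted p = 0.00609) and Sv2c by 1.67 (SE 0.44, adjusted p = 0.00782), 2 of 8 members where 4.28% of all genes were called higher. At an adjusted p under 0.05 alone 4 of 8 were higher, where 13.4% were. The Sv2c values in +PBS-4w were 4.81, 18.2, 27.5 and 25.2 CPM, so that 3 of 4 libraries lay above the sub-SCI range and replicate 1 lay below it. The Syt2 values of 71.0, 38.5, 46.6 and 43.7 CPM all lay above it. Both calls were lost without sub-SCI replicate 1, sub-SCI replicate 3 or +PBS-4w replicate 3. That of Sv2c alone was lost without sub-SCI replicate 2, +PBS-4w replicate 2 or 4 or +MSC-1w replicate 1 or 3. Without +PBS-4w replicate 1 that of Syt2 was lost (1.27, adjusted p = 0.0133), Sv2c stood at 1.98 (adjusted p = 0.000204), and Snap25 and Vamp1 at 0.19 and 0.33 where they had been 1.11 and 1.03. The other 6 members were not called, with log2 fold changes from -0.15 (Stx1a) to 1.11 (Snap25).

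The question of the study was what the cells add at the same week. Averaged over the 3 weekly differences between +MSC and +PBS, the 8 release genes were all higher with cells, by a median log2 fold change of 0.93 where the median over all genes was -0.02. By the DEG rule 3 of 8 rose, Syt2, Sv2c and Vamp1, where 1.61% of all genes were called higher. At an adjusted p under 0.05 with no minimum fold, 6 of 8 passed, where 12.3% of all genes did. The comparisons with Intact and with +MSC use the same +PBS libraries.

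Syt2 gave 150.0, 128 and 109 CPM in +MSC-1w against 61.2, 41.8 and 28.1 CPM in +PBS-1w. At 2 wpt it gave 232, 153 and 155 CPM against 50.6 and 111 CPM. At 4 wpt it gave 253, 165, 132 and 161 CPM against 71.0, 38.5, 46.6 and 43.7 CPM. At each week every +MSC library was above every +PBS library. The mean log2 fold change over weeks was 1.52 (SE 0.23, adjusted p = 0.000426), a fold of 2.86.

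Sv2c gave 49.6, 58.2 and 49.5 CPM in +MSC-1w against 37.2, 19.5 and 11.9 CPM in +PBS-1w. At 2 wpt the values were 82.6, 58.0 and 56.3 CPM against 22.5 and 39.2 CPM. At 4 wpt they were 108, 74.9, 65.7 and 66.5 CPM against 4.81, 18.2, 27.5 and 25.2 CPM. Here too the groups did not overlap at any week, and the mean log2 fold change was 1.45 (SE 0.26, adjusted p = 0.000985), a fold of 2.73. Without +PBS-2w replicate 1 it was 1.31 with an adjusted p of 0.0158, past the DEG rule no longer.

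Vamp1 gave 1206, 586 and 732 CPM in +MSC-1w against 384, 363 and 207 CPM in +PBS-1w. At 2 wpt it gave 1369.8, 995 and 1014 CPM against 441 and 805 CPM. At 4 wpt it gave 1351, 809, 917 and 1119.9 CPM against 1009, 259.5, 273 and 352 CPM. The groups were apart at 1 and 2 wpt and overlapped at 4 wpt, through +PBS-4w replicate 1 at 1009 CPM. The mean log2 fold change was 1.14 (SE 0.27, adjusted p = 0.0063). In 26 fits that each left out 1 library, the Vamp1 call was kept in 18, that of Sv2c in 25 and that of Syt2 in 26.

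The other 5 members were not called in this fit. Syt1 ran from 50.5 to 75.3 CPM in +MSC-1w and 25.5 to 43.2 CPM in +PBS-1w, from 60.3 to 91.3 and 37.3 to 52.6 CPM at 2 wpt, and from 43.1 to 114 and 24.0 to 52.1 CPM at 4 wpt. Sv2a ran from 226 to 246 CPM in +MSC-1w and 94.4 to 175 CPM in +PBS-1w, from 240.2 to 332 and 143 to 234 CPM at 2 wpt, and from 189.5 to 353 and 111 to 244 CPM at 4 wpt. Vamp2 ran from 170.5 to 206 CPM in +MSC-1w and 120.4 to 165 CPM in +PBS-1w, from 188 to 212 and 144 to 193 CPM at 2 wpt, and from 188 to 256 and 166 to 254 CPM at 4 wpt. Syt1 and Sv2a did not overlap at 1 and 2 wpt, and Vamp2 at 1 wpt. All 3 overlapped at 4 wpt, through +PBS-4w replicate 1. The rest of that group held at most 41.7 CPM of Syt1, 136 CPM of Sv2a and 172 CPM of Vamp2.

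Snap25 had a mean log2 fold change of 1.10 (SE 0.33, adjusted p = 0.0206), Syt1 of 0.76 (SE 0.20, adjusted p = 0.0089) and Sv2a of 0.63 (SE 0.17, adjusted p = 0.0128). Snap25 passed the DEG rule without +PBS-4w replicate 1 (1.38, adjusted p = 0.000621), where 3.05% of all genes were called higher, with the replicate block (1.19, adjusted p = 0.00684) and with DESeq2 on all 26 libraries (1.09, adjusted p = 0.00393). Vamp2 stood at 0.25 (95% interval 0.03 to 0.46) and Stx1a at 0.24 (-0.07 to 0.56), both with an adjusted p above 0.05. Snap25 gave 661, 379 and 436 CPM in +MSC-1w against 191, 194 and 129 CPM in +PBS-1w, and these groups did not overlap. At 2 wpt it gave 902, 514 and 522 CPM against at most 487 CPM, again apart. At 4 wpt its values of 843, 423, 421 and 569 CPM overlapped the +PBS-4w values of 739, 146, 171 and 175 CPM, through replicate 1. Stx1a, which forms the plasma membrane side of the SNARE bundle with Snap25, gave 13.6, 12.9 and 10.1 CPM against 14.9, 13.5 and 9.05 CPM at 1 wpt, overlapping throughout. Its groups were apart at 2 wpt, with 10.3 to 13.7 CPM against 8.25 to 9.28 CPM. At 4 wpt, with 8.19 to 14.1 CPM in +MSC-4w, they overlapped through +PBS-4w replicate 1 at 14.5 CPM. The rest of +PBS-4w held 6.35 to 7.52 CPM of Stx1a.

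**Figure D3:**
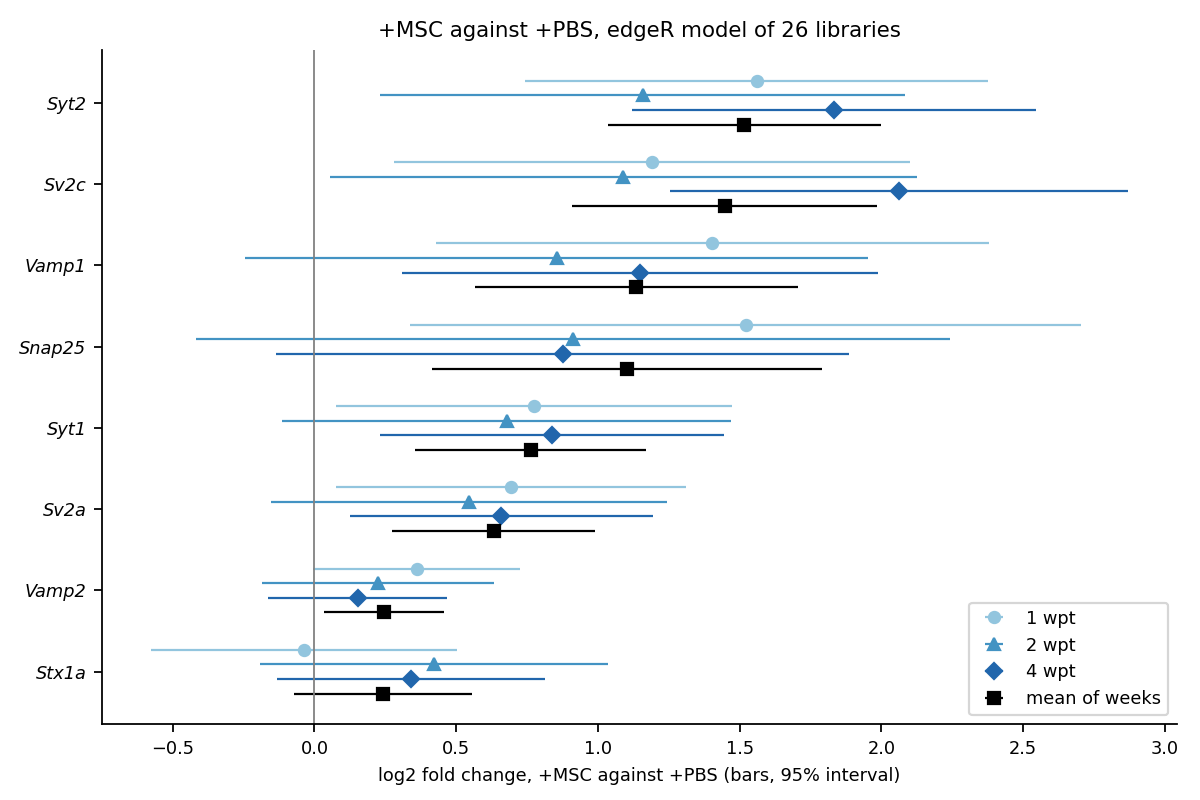
Log2 fold change of +MSC against +PBS for each gene at 1, 2 and 4 wpt and as the mean of the weeks, with 95% intervals, from 1 model of 26 libraries. Syt2 and Sv2c lead, at 1.52 and 1.45 over the weeks. The intervals of Vamp2 and Stx1a include 0 at each week, as do those of Syt1, Sv2a, Snap25 and Vamp1 at 2 wpt and Snap25 at 4 wpt.

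Week by week, the calls lay at 4 wpt. At 1 wpt 0 of 8 members were called higher, where 0% of all genes were and 1899 genes were higher and 1320 lower at an unadjusted p under 0.05. Even so, 7 of 8 had every +MSC library above every +PBS library, as 15.3% of all genes did. At 2 wpt 0 of 8 were called, where 0% were and 988 genes were higher and 1231 lower at an unadjusted p under 0.05, and 7 of 8 were apart in this way, as 18.6% were. At 4 wpt 2 of 8 were called, Syt2 (log2 fold change 1.83, SE 0.34, adjusted p = 0.00669) and Sv2c (2.06, SE 0.39, adjusted p = 0.0069), where 0.495% of all genes were. These 2 were also the members whose groups were apart at 4 wpt, as held for 6.08% of all genes. The overlap of the other 6 came through +PBS-4w replicate 1 alone. How many of all genes are apart without that library was not counted. At 1 wpt their log2 fold changes were 1.56 (Syt2) and 1.19 (Sv2c), and at 2 wpt 1.16 and 1.09.

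The test of the difference between weeks called 0 of 8 members in each of 3 contrasts, where 0% of all genes were called in either direction. At an unadjusted p under 0.05, 335 genes had a larger and 367 a smaller cell effect at week 4 than at week 1, 234 and 179 at week 4 than at week 2, and 208 and 272 at week 2 than at week 1. DESeq2 on all 26 libraries called 1 gene of the whole table in each of the contrasts with week 1, and no member. For Sv2c the difference of the week 4 and week 1 effects was 0.87 on the log2 scale (95% interval -0.32 to 2.06), and for Syt2 it was 0.27 (-0.79 to 1.33). With DESeq2 fitted to the 2 groups alone, Snap25, Syt2 and Vamp1 were called at 1 wpt, where 0.965% of all genes were called higher, and Sv2c at 2 wpt, where 0.34% were.

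The 2 calls at 4 wpt sat near the threshold of 0.01. Each was kept in 18 of 26 fits that left out 1 library. Both were lost without Intact replicate 2, +PBS-4w replicate 2 or 4, +MSC-1w replicate 2 or +MSC-4w replicate 1, 2 or 4. Without +PBS-4w replicate 3 Sv2c alone was left, and without +MSC-2w replicate 2 Syt2 alone. Without +PBS-4w replicate 1, 4 of 8 were called, where 2.69% of all genes were, Snap25 (1.75, adjusted p = 0.00953) and Vamp1 (1.80, adjusted p = 0.00362) beside Syt2 and Sv2c. Sv2c then stood at 1.71 in place of 2.06, its lowest value over the fits that left out 1 library, and below Snap25 and Vamp1. The fit without the 8 libraries labelled replicate 1 left a single library in +PBS-2w, and its calls are not given.

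The +MSC groups were also compared with Intact, which asks what was left of the injury deficit. Here 1 of 8 members was called lower in +MSC-1w (Syt2, -1.57, SE 0.38, adjusted p = 0.00309), where 2.63% of all genes were, and 4 of 8 passed an adjusted p under 0.05 alone, where 14.8% did. In +MSC-2w 0 of 8 were called, where 0.461% were, and 1 of 8 passed an adjusted p under 0.05 alone, where 6.44% did. In +MSC-4w 0 of 8 were called, where 1.53% were, and 4 of 8 passed an adjusted p under 0.05 alone, where 13.6% did. At an unadjusted p under 0.05, 2607 genes were lower in +MSC-2w and 3503 in +MSC-4w. DESeq2 on all 26 libraries called 0 and 1 members there, where 0.683% and 1.73% of all genes were called lower, and DESeq2 on the 2 groups called 2 in each, where 1.05% and 2.14% were. The levels stayed below Intact all the same: in +MSC-4w the 8 means lay between 43.4% (Snap25) and 85.4% (Vamp2) of Intact, and in 6 of 8 genes each +MSC-4w library was below each Intact library, as held for 20.4% of all genes.

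Against the state at transplantation, 5 of 8 members were higher in +MSC-4w (Syt1, Syt2, Sv2c, Snap25 and Vamp1), where 10.2% of all genes were called higher. Sv2c rose by 3.73 (SE 0.47, adjusted p = 5.27e-06), a fold of 13.3, and Syt2 by 3.34 (SE 0.41, adjusted p = 3.98e-06), a fold of 10.1. Sv2a, Vamp2 and Stx1a had log2 fold changes of 0.85, 0.84 and 0.19.

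Within each family, injury and cells moved 1 gene more than its relative, and this was compared as a log2 ratio in each library. What part the cell mix of the libraries had in these ratios, after injury or with cells, was not tested. In Intact the Vamp1 to Vamp2 ratio was 2.98, 2.72, 2.88 and 2.79. In the 12 sub-SCI and +PBS libraries, pooled for this test, it ran from -0.06 to 2.06, below each Intact library. The difference of the means was -1.70 (exact two-sided permutation test over 1820 regroupings, p = 0.000549, adjusted over 3 ratios p = 0.000824). The Syt2 to Syt1 ratio was 1.77, 1.47, 1.68 and 1.31 in Intact and between -0.71 and 1.07 in the injured libraries without cells (difference -1.31, exact permutation p = 0.000549, adjusted p = 0.000824). The Sv2c to Sv2a ratio was -1.41, -1.83, -1.49 and -2.07 in Intact and between -5.65 and -2.23 in the injured libraries without cells (difference -1.62, exact permutation p = 0.0159, adjusted p = 0.0159). The gene that moved more, Syt2, Sv2c or Vamp1, held 0, 2 and 1 GC boxes in the windows printed, and its relative 3, 0 and 3.

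With cells the 3 ratios were higher, in a comparison that shares the +PBS libraries with the last. Averaged over weeks, +MSC exceeded +PBS by 0.96 for Vamp1 to Vamp2, by 0.81 for Syt2 to Syt1 and by 0.92 for Sv2c to Sv2a. The exact two-sided permutation tests within weeks, over 14000 regroupings, gave p = 7.14e-05, 7.14e-05 and 0.000143 (adjusted over 3 ratios 0.000107, 0.000107 and 0.000143), of which 7.14e-05 is the smallest p this design can give. By week the differences were 1.02, 0.67 and 1.20 for Vamp1 to Vamp2, 0.83, 0.56 and 1.04 for Syt2 to Syt1 and 0.60, 0.55 and 1.61 for Sv2c to Sv2a, at 1, 2 and 4 wpt. In +MSC-4w the Sv2c to Sv2a ratio was -1.71, -1.39, -1.53 and -1.81, overlapping the Intact values. The Syt2 to Syt1 ratio in +MSC-4w was 1.15, 1.67, 1.62 and 1.26, overlapping Intact, while Vamp1 to Vamp2, with 2.46 as its highest value, stayed below it. Without +PBS-4w replicate 1, whose Sv2c to Sv2a ratio was -5.65 against -2.60 to -2.30 in the rest of its group, the difference for Sv2c to Sv2a was 0.80 at 4 wpt, a value added after seeing the data, in place of 1.61. Over weeks it was then 0.65 and still passed an adjusted p of 0.05 in the exact permutation test.

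**Figure D4:**
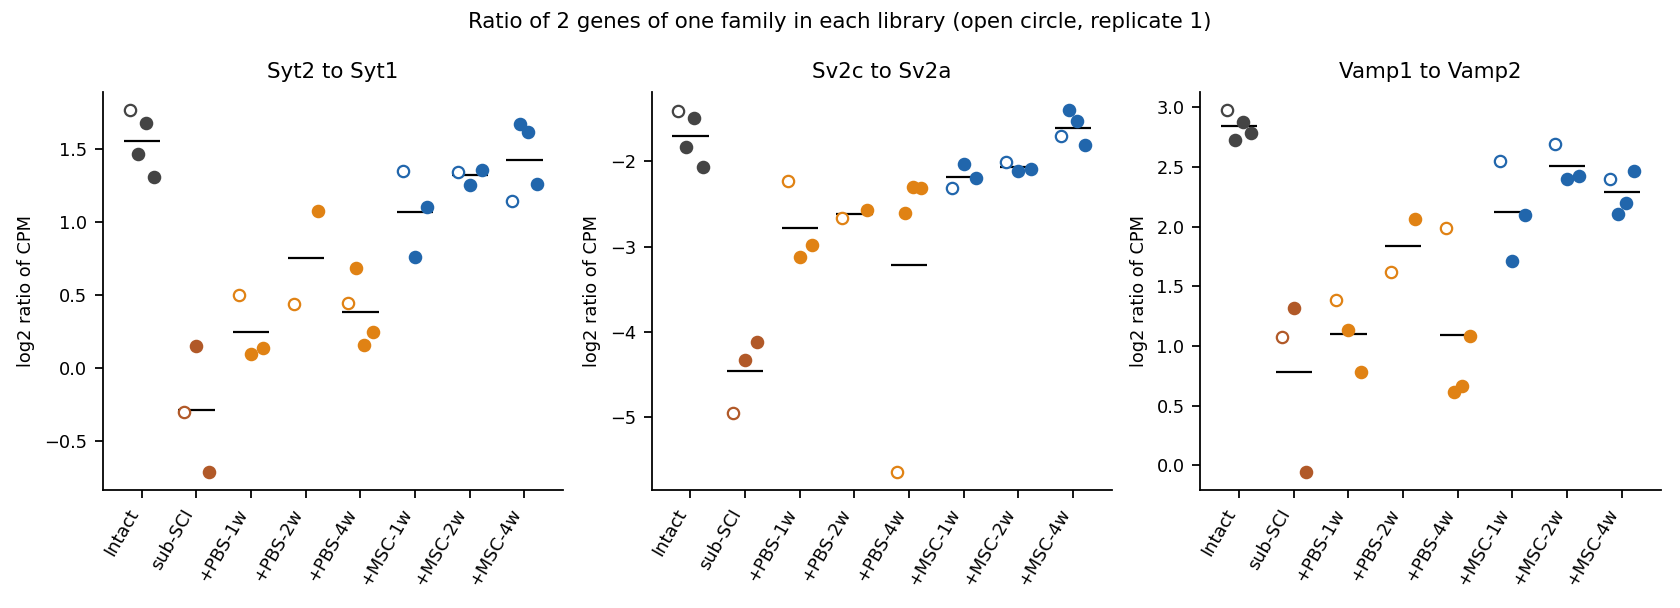
Log2 ratio of 2 genes of a family in each library, for Syt2 to Syt1, Sv2c to Sv2a and Vamp1 to Vamp2, with open circles for replicate 1 and lines for group means. The ratios drop in sub-SCI, to means of -0.29, -4.46 and 0.78, and stand higher in the +MSC than in the +PBS groups at each week.

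The wider release pathway was described by 5 lists, with 65 genes tested, chosen by role and with earlier results of these data known. Between Intact and sub-SCI 55 of these 65 were called lower, where 17.5% of all genes were, and 0 higher, with a median log2 fold change of -2.32. Averaged over weeks, 12 of 65 were called higher with cells, where 1.61% of all genes were, and 0 lower, and 51 passed an adjusted p under 0.05 in the higher direction, where 12.3% did, with a median of 0.77. The same shares of all genes stand behind the counts of the single lists.

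The SNARE regulators, which assemble, clamp or take apart the SNARE bundle, held 15 of 20 genes called lower in sub-SCI and 5 of 20 called higher with cells over weeks. Among these were Napb, which helps NSF to take the bundle apart (1.24, SE 0.19, adjusted p = 0.000456), Nsf itself (1.03), the vesicle priming factor Unc13c (1.18) and the complexin Cplx1 (1.22). Napb held 12.9 to 19.7 CPM in +PBS-4w and 28.5 to 68.4 CPM in +MSC-4w.

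The active zone list joins genes that hold vesicles and calcium channels at the release site with vesicle proteins such as Rab3c. It had the highest share of calls among the 5 lists. Of 15, 14 were called lower in sub-SCI and 6 higher with cells over weeks. The 3 with the smallest adjusted p were the scaffold Rims1 (1.30, SE 0.21, adjusted p = 0.000513), Rab3c (1.19) and rabphilin, Rph3a (1.47). Rph3a is a partner of Rab3 on the vesicle. Erc2, Rab3c and Napb were also called at 4 wpt alone, with log2 fold changes of 1.72, 1.48 and 1.52.

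The other lists had few or no calls for the cells. Of 12 other synaptotagmins 11 were called lower in sub-SCI and 0 changed with cells by the DEG rule, though 8 passed an adjusted p under 0.05, Syt7 (0.84) with the smallest. Of 10 other vesicle proteins 8 were called lower in sub-SCI and 1, the synapsin Syn1 (1.02, SE 0.20, adjusted p = 0.00205), rose with cells. Of 8 vesicle recycling genes 7 were called lower in sub-SCI and 0 were called with cells, with 6 past an adjusted p under 0.05, Sh3gl2 (0.85), which bends membrane during endocytosis, and Synj1 (0.48) among them.

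The SNAREs of other cell compartments and of non-neuronal cells, listed with some related proteins, lay on both sides of 0. Of 22 tested, 0 were called lower in sub-SCI and 3 higher, where 16.6% of all genes were called higher: Vamp5 (2.02), Vamp8 (1.85) and Stxbp2 (3.03, SE 0.23), a Munc18 protein that binds syntaxins. In the same comparison 13 lay above 0 and 9 below, 11 were higher and 5 lower at an adjusted p under 0.05, and the median log2 fold change was 0.26. Over all 17990 genes, 5815 were higher and 5880 lower there at an unadjusted p under 0.05, a looser cut. With cells 10 lay above 0 and 12 below, 0 of 22 were called in either direction, 7 were lower and 0 higher at an adjusted p under 0.05, where 10.9% of all genes were, and the median was -0.07. Vamp8, a SNARE of endosomes and secretory granules, stood at -0.66 (SE 0.09, adjusted p = 0.000211) and Vamp5 at -0.71.

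**Figure D5:**
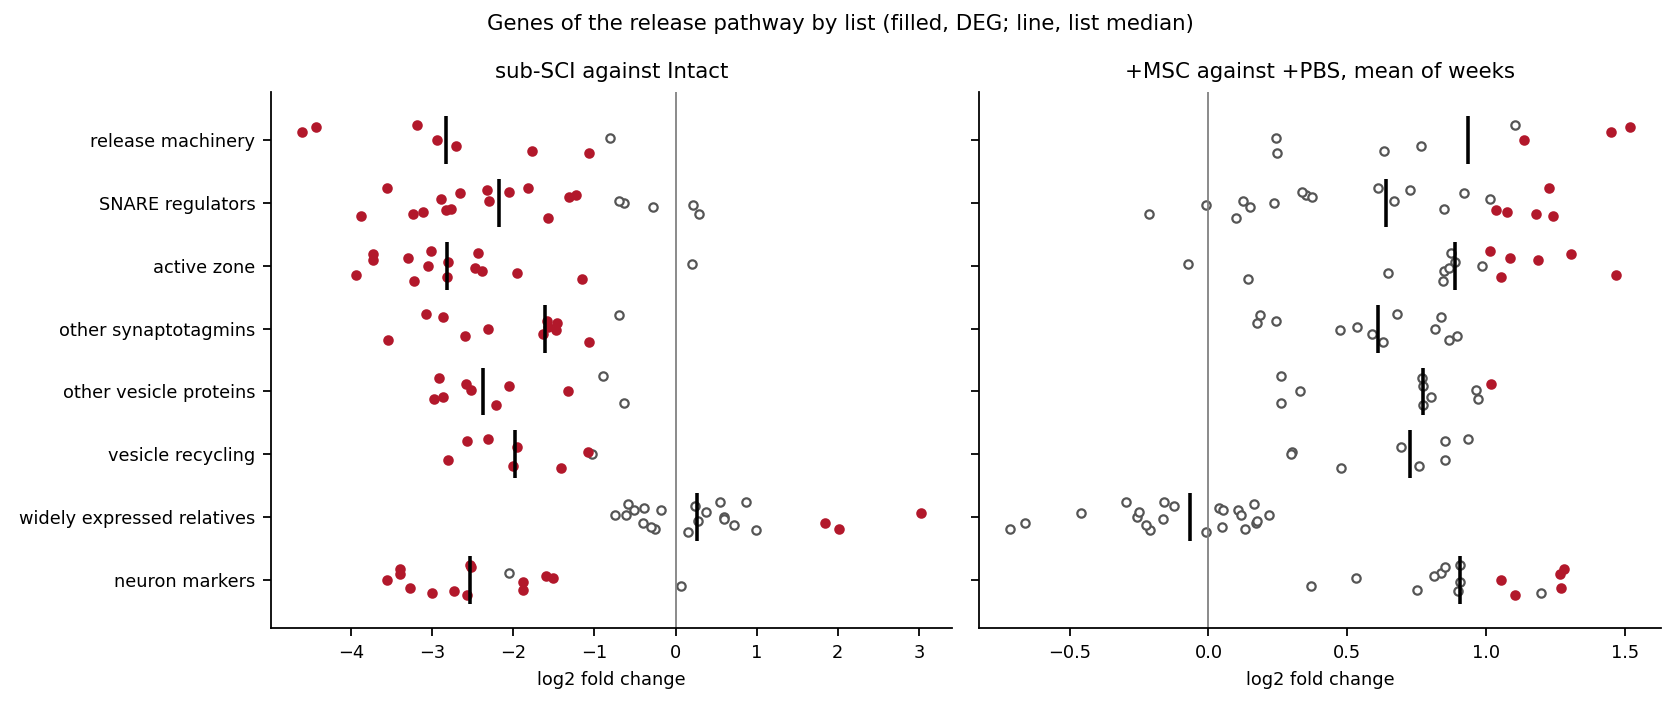
Log2 fold change of each gene, by list, between Intact and sub-SCI (left) and between +PBS and +MSC as the mean of the weeks (right). Filled points are DEGs and lines are list medians. The release machinery, its 5 pathway lists and the neuron markers lie to the left in sub-SCI and mostly to the right with cells, and the widely expressed relatives (SNAREs of other compartments and related proteins) centre near 0, at medians of 0.26 and -0.07.

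The cells' effect on the release genes ran beside that on neuron markers in general. Of 15 neuron markers, 5 were called higher over weeks (Rbfox3, Myt1l, Thy1, Nefl and Nefm) and 0 lower, with a median log2 fold change of 0.90 against 0.93 for the release genes. They summed to between 5017 and 11844 CPM over the +MSC libraries and between 1721 and 8423 CPM over the +PBS libraries. Of 6 motor neuron markers 2 were called higher, Slc5a7 (1.10) and Chat (1.01). The 7 fibroblast and scar markers were all lower at an adjusted p under 0.05, with none called by the DEG rule and a median of -1.25, and their sum ran from 520 to 3561 CPM in +MSC and from 1186 to 9213 CPM in +PBS. Of 10 microglia and macrophage markers 1 was called lower, where 0.956% of all genes were, Lyz2 (-1.11), as was 1 of 4 endothelial markers, Cdh5 (-1.26). No oligodendrocyte, astrocyte, Schwann cell or muscle marker was called. The part of these shifts in the release genes was not tested. The release genes minus the neuron markers in mean log2 CPM stood between -0.25 and -0.20 in the 3 +MSC groups and between -0.26 and -0.07 in the 3 +PBS groups.

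The 8 genes moved together over the 26 libraries. Pearson's r between their log2 CPM, over libraries that share groups and depth, ran from 0.47 to 0.98 over the 28 pairs, with a median of 0.90. After each group's mean was taken away the median was 0.76. Within groups Snap25 and Vamp1 were the closest pair at 0.96, and Sv2c stood aside, with r to the other 7 from -0.24 to 0.27. This rested on 1 library: without +PBS-4w replicate 1, a choice made after seeing the data, those 7 values ran from 0.51 (Stx1a) to 0.76 (Sv2a). Among the other genes of the table most like the mean profile of the 8, by r over the 26 libraries, were Rph3a, Slc12a5, Pacsin1 and Phf24, with r from 0.994 to 0.995.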

How the data were processed

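The authors deposited 1 table of whole-number read counts per gene for 26 libraries from spinal cord. Per the methods, reads were trimmed, reads mapping to human GRCh38 were removed and the rest were aligned to Rnor6, in all libraries. What that removal did to conserved genes was not tested. The submitters' processing notes name Trim Galore 0.5.0, HISAT2 2.1.0, SAMtools 1.9 and featureCounts 1.6.4. The annotation release and the strand setting are not given in the sources used here.

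Groups and replicate numbers came from the labels, which give 3 libraries for +MSC-2w and 2 for +PBS-2w, where the methods have 2 for +MSC-2w. The methods call the libraries biological replicates. Genes with low counts were removed with filterByExpr. The 8 groups were fitted in 1 model with edgeR 4.0.16 (R 4.3.3), TMM scaling and the quasi-likelihood test, with p-values adjusted by Benjamini-Hochberg over 17990 genes. The fit was tested on simulated counts. CPM were TMM-scaled, log2 CPM had a prior count of 2, and levels per kilobase used the table's gene lengths. Log2 ratios of 3 gene pairs were tested by exact permutation within weeks. A ratio with Sv2b is not analysed here. Alternatives were median-of-ratios scaling, no filter, at least 10 counts in every library, DESeq2 1.42.0, fits of the 2 groups alone, an adjusted p under 0.05 with no minimum fold, a replicate block, a term for replicate 1, leaving out all replicate 1 libraries or each library in turn, and a prior count of 0.5 for the ratios.

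All members were named. Of each of the 15 other lists, the 3 genes with the smallest adjusted p over weeks at most were named, with the called genes where 5 or fewer. The other genes most like the members were named by Pearson's r over the 26 libraries. Some genes that these rules name are not reported here. The members and lists were chosen with earlier results of these data known. Sequences are from RefSeq GRCr8.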

Additional observations from a re-analysis of the deposited data

Results flagged for a closer look

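Dixon's test was run on 33 sets of 4 values, for 8 genes and 3 ratios in each of Intact, +PBS-4w and +MSC-4w. In 6 sets 1 library lay far from the rest, which chance alone does in about 1 of 20 independent sets. The sets of a group come from the same libraries and are not independent. In Intact this was Snap25 in replicate 1, at 1691 CPM where the other 3 libraries held 1149 to 1187 CPM. The other 5 were all +PBS-4w replicate 1. There Snap25 was at 739 CPM against 146 to 175 CPM in the other 3 libraries, and Vamp1 at 1009 CPM against 259.5 to 352 CPM. Vamp2 was at 254 CPM against 166 to 172 CPM, and Stx1a at 14.5 CPM against 6.35 to 7.52 CPM. The log2 ratio of Sv2c to Sv2a was -5.65 in this library against -2.60 to -2.30 in the others. These values come from 1 library and are not independent of each other.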

How the results depend on the processing

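Log2 fold changes of single genes were followed over the alternatives, leaving aside fits without 1 library. Differences between weekly effects were counted for Syt2 and Sv2c only. Of these values 892 kept their direction and side of the threshold, 49 moved past it, 17 no longer passed it and 4 reversed. The 4 reversed when all replicate 1 libraries were left out: Stx1a in +MSC-1w vs. +PBS-1w (0.021), Vamp2 in +MSC-2w vs. +PBS-2w (-0.042), Sv2a in +PBS-4w vs. sub-SCI (-0.029) and the week 4 minus week 1 effect of Sv2c (-0.21). The cause was not tested. Counts of members called moved as follows. At an adjusted p under 0.05 with no minimum fold they were 8 in +PBS-2w vs. Intact, 6 over weeks, 4 in +PBS-4w vs. sub-SCI, and 4, 1 and 4 in +MSC-1w, +MSC-2w and +MSC-4w vs. Intact. With at least 10 counts in every library, 2 were called in +MSC-1w vs. Intact, where 434 of 14181 genes were called lower. With DESeq2 on all 26 libraries, 4 were called over weeks (Snap25 beside the 3), 3 in +MSC-1w and 1 in +MSC-4w vs. Intact. It called 364 of 26370 genes higher over weeks, and 765 and 457 lower in those 2 groups vs. Intact. With a term for replicate 1 the members called were 4, 2 and 1, where 357, 649 and 369 of 17990 genes were called.

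With all replicate 1 libraries left out, a single library remained in +PBS-2w, and the members called by that fit are not given. Its log2 fold changes in +MSC-1w vs. +PBS-1w were 1.75 for Syt2, 1.77 for Sv2c and 1.20 for Vamp1. In +MSC-2w vs. +PBS-2w they were 0.46, 0.53 and 0.31. With edgeR on the 2 groups alone, 0 were called in +MSC-4w vs. +PBS-4w, 0 in +PBS-4w vs. sub-SCI, and 5, 2 and 2 in the 3 +MSC groups vs. Intact. That fit called 0 of 16495 genes higher in +MSC-4w vs. +PBS-4w and 51 of 16678 in +PBS-4w vs. sub-SCI. Against Intact it called 837 of 16518, 180 of 16384 and 427 of 16290 genes lower at 1, 2 and 4 wpt. With DESeq2 on the 2 groups alone, 3 were called in +MSC-1w vs. +PBS-1w, 1 in +MSC-2w vs. +PBS-2w, 0 in +PBS-4w vs. sub-SCI, and 5, 2 and 2 in the 3 +MSC groups vs. Intact. It called 232 of 24041, 80 of 23499 and 722 of 23911 genes higher in the first 3 of these comparisons. Against Intact it called 931 of 24301, 253 of 23990 and 529 of 24667 genes lower.

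The main model did not take the replicate numbers as pairing the samples, and a replicate block was fitted as an alternative. Between libraries of different groups, r of the deviations from group means was over 0.1 in 31 of 80 pairs with the same number (median 0.058). It was over 0.1 in 18 of 28 pairs of replicate 1 libraries (median 0.171) and 13 of 52 pairs with another shared number (median 0.03). With different numbers it was over 0.1 in 32 of 214 pairs (median -0.025). Pairs of replicate 1 libraries thus shared deviations more often than pairs with different numbers, which the main model does not take into account. With the replicate block, 4 members were called over weeks (Snap25 beside the 3), 7 in +PBS-4w vs. Intact, 7 in +PBS-2w vs. Intact, 1 in +MSC-4w vs. +PBS-4w (Syt2), 1 in +PBS-4w vs. sub-SCI (Syt2), and 2 and 1 in +MSC-1w and +MSC-4w vs. Intact. Of 17990 genes that fit called 416 higher over weeks, 86 in +MSC-4w vs. +PBS-4w and 741 in +PBS-4w vs. sub-SCI. Against Intact it called 2008 lower in +PBS-4w, 1343 in +PBS-2w, 582 in +MSC-1w and 360 in +MSC-4w.

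Leaving out 1 library gave 1 to 4 calls over weeks, 0 to 4 in +MSC-4w vs. +PBS-4w, 0 to 6 in +PBS-2w vs. Intact (0 without +PBS-2w replicate 1), and 0 to 2 in +PBS-4w vs. sub-SCI. Against Intact it gave 0 to 2 in +MSC-1w (0 without +MSC-1w replicate 2 or 3), 0 to 1 in +MSC-2w and 0 to 3 in +MSC-4w (3 without +MSC-4w replicate 1). The share of all genes called moved between these fits as well. Without +PBS-4w replicate 1, 2.69% were called higher in +MSC-4w vs. +PBS-4w and 3.05% over weeks, against 0.495% and 1.61% in the main fit. For the other fits these shares are not given, so the ranges are not read as particular to the members. Over weeks, Syt2 alone was called without +PBS-2w replicate 1, with Vamp1 at an adjusted p of 0.0532. The log2 fold changes that changed sign ran from -0.22 to 0.11 for Stx1a in +MSC-1w vs. +PBS-1w, from -0.51 to 0.033 for Stx1a and -0.13 to 0.33 for Sv2a in +PBS-4w vs. sub-SCI. The differences between weekly effects ran from -0.65 to 0.35 (Sv2c) and -0.81 to 0.27 (Syt2) for week 2 minus week 1, and from -0.051 to 0.51 (Syt2) for week 4 minus week 1.

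The 3 ratios kept their direction and their adjusted p under 0.05 in every alternative run. Sv2c and Stx1a rested on the fewest counts, with 129 and 155 in their lowest libraries.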
